A study of Mus musculus with 6 samples.

Results

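Complement genes were examined in cells sorted from mouse colon, taken from the myenteric plexus that runs within the muscle coat. The genes were C1qa, C1qb, C1qc, C3, C3ar1, C5ar1, Cfp and Serping1, and every probe set of the array whose only gene symbol was one of them was taken. This gave 13 probe sets for 7 of the 8 genes, of 45101 probe sets for 18193 genes in all, and C3 was not analysed here. The 6 libraries comprised 3 of EGFP-positive cells, called colonic neurons by the labels, and 3 of EGFP-negative cells, called myenteric cells. All came from mice of the strain Mapttm1(EGFP)Klt/J, in which EGFP stands at the locus of the microtubule protein tau, a gene of neurons, whose allele the insertion disrupts. Age, sex and the number of altered copies are not stated in the labels. All mice had received fluorescent cholera toxin subunit B in the celiac ganglion and were killed 3 to 4 days later, so both groups share the surgery and the tracer. Each library pooled cells of 2, 4 or 6 mice, without a statement of which library had which number.

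Complement is a protein cascade that tags targets for uptake and, at its end, can pierce membranes. It is started by the C1 complex, by lectins or by the spontaneous turnover of C3. C1q is built from the chains encoded by C1qa, C1qb and C1qc, which tissue macrophages make, whereas many of the other soluble components and the inhibitor encoded by Serping1 are made by liver and by connective tissue cells. Macrophages of the gut muscle layer lie close to enteric neurons.

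Each gene's 3 values per group are deposited log2 expression values of replicates 1, 2 and 3, and a difference is EGFP-positive minus EGFP-negative. Group and library names, shortened to EGFP+ and EGFP- where values are listed, are the labels' own. Probe sets for a bacterial control transcript, TrpnX, read 1.00 to 1.48 and mark the background. The number of probe sets above a value of 6 ran from 6182 (EGFP-negative replicate 1) to 7621 (EGFP-negative replicate 3). Mapt, the gene that drives EGFP, read 1.43, 1.32 and 5.55 in libraries labelled EGFP+, against 1.44, 1.64 and 1.38 in those labelled EGFP-. Mapt was therefore at background in EGFP-positive replicates 1 and 2, unlike in replicate 3. As the insertion disrupts the allele and the number of altered copies is not stated, Mapt alone cannot check the labels of these libraries. Directions below refer to the labels. The 8 neuron markers averaged 3.39, 3.41 and 6.74 in libraries labelled EGFP+, against 3.45, 3.69 and 3.75 in those labelled EGFP-. In this mean EGFP-positive replicates 1 and 2 thus lay below all 3 EGFP-negative libraries, and only replicate 3 lay above them. Gapdh probe sets at the 3' end read 1.29, 1.06 and 0.97 above those at the 5' end in libraries labelled EGFP+ and 1.00, 2.47 and 0.77 above in libraries labelled EGFP-. No gene of the 18193 passed an adjusted p of 0.05 (limma, Benjamini-Hochberg), and 893 (4.91%) had an unadjusted p under 0.05, 624 of them (3.43%) lower and 269 (1.48%) higher.

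The 3 C1q chains were lower in EGFP-positive replicates 2 and 3 than in all 3 EGFP-negative libraries, while EGFP-positive replicate 1 lay within the EGFP-negative range. C1qa, the A chain, read 8.44, 3.04 and 1.57 in libraries labelled EGFP+, against 9.80, 9.25 and 7.59 in those labelled EGFP-. C1qb, the B chain, read 8.11, 3.94 and 1.55 in EGFP+ libraries, against 10.17, 9.11 and 7.78 in EGFP- libraries. C1qc, the C chain, read 6.55, 1.27 and 0.48 in EGFP+ libraries, against 8.23, 8.39 and 6.09 in EGFP- libraries. Replicate 3 was the lowest library in each group for all 3 genes, and in EGFP-positive replicate 3 the value of C1qc lay below the TrpnX controls. The log2 differences were -4.53 (SE 1.86) for C1qa, -4.48 (SE 1.73) for C1qb and -4.80 (SE 1.73) for C1qc. None passed among the 18193 genes (adjusted p = 1.00, 0.994 and 0.986 in limma), and the groups overlapped for each. In such bulk samples, fewer cells of a type and less RNA per cell cannot be told apart.

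The spread behind these large standard errors, which come from a fit without pairing, lay mostly in the libraries labelled EGFP-positive. C1qa was 4.35 ± 3.62 there and 8.88 ± 1.15 in the libraries labelled EGFP-negative (SD, n = 3 each). Set against the EGFP-negative mean of the same gene, the 3 chains read -1.02 to -0.44 in EGFP-positive replicate 1, -6.30 to -5.08 in replicate 2 and -7.46 to -7.09 in replicate 3. In same-numbered libraries C1qa was lower in all 3 pairs, by differences of -1.36, -6.21 and -6.02. C1qb gave -2.06, -5.16 and -6.23, and C1qc gave -1.68, -7.12 and -5.61. The smallest of the 3 pair differences of each chain was thus in pair 1. Leaving out EGFP-positive replicate 1, a library with Mapt at background, gave differences of -6.57, -6.27 and -6.70 for C1qa, C1qb and C1qc. The overlap then ended, since this was the EGFP-positive library inside the EGFP-negative range, and 11.6% of all genes were lower without overlap in that fit. Leaving out EGFP-positive replicate 2, the other library with Mapt at background, gave -3.87, -4.19 and -4.06, with overlap. No chain passed in either fit (limma adjusted p of 0.347 or more).

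**Figure D1:**
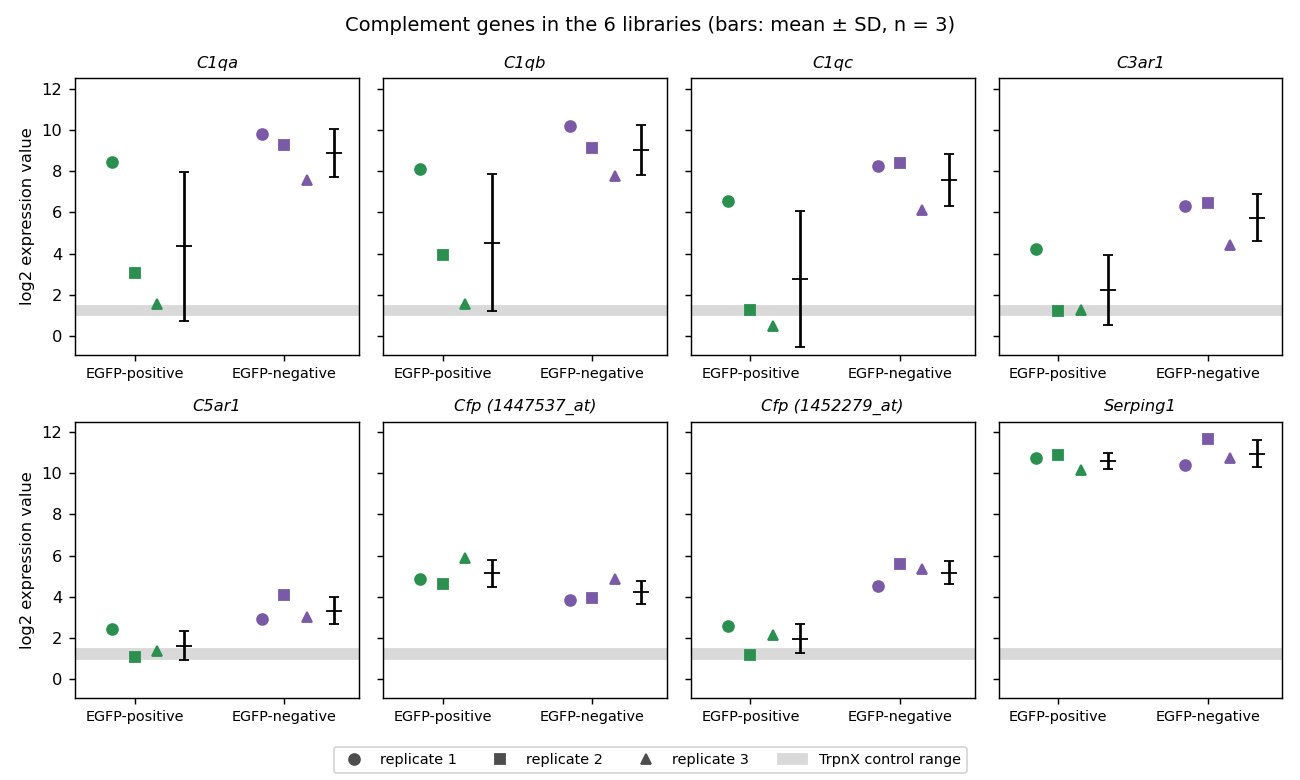
Log2 expression values (vertical axis) of the 7 genes in the 3 libraries labelled EGFP-positive (left of each panel) and the 3 labelled EGFP-negative (right); symbols mark replicates, bars the mean ± SD of 3 libraries and the grey band the TrpnX background of 1.00 to 1.48. The C1q chains lie near or below the band in EGFP-positive replicate 3, C1qc also in replicate 2, Serping1 stays above 10 in every library, and the 2 Cfp probe sets differ in direction.

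All 5 C1q probe sets showed the same order of libraries within the EGFP-positive group, and all 5 had EGFP-positive replicate 1 inside the EGFP-negative range. The second C1qb probe set, 1417063_at, read 7.39, 2.47 and 0.53 in EGFP+ libraries, against 9.38, 8.98 and 7.35 in EGFP- libraries. The third, 1434366_x_at, read 6.95, 3.92 and 3.25 in EGFP+ libraries, against 8.81, 7.99 and 6.64 in EGFP- libraries. The difference of the third, -3.11 (SE 1.10), was the smallest of the 5, and its lowest value stayed 3.25 where the others reached between 0.48 and 1.57. Over the 6 libraries the chains followed each other with Pearson correlations of 0.980 to 0.993, given as a description since the values share the same arrays.

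The C1q chain genes are direct neighbours on chromosome 4 in the RefSeq annotation (GRCm38.p6), in the order C1qb, C1qc, C1qa, with no other protein-coding gene between them. Promoters are shown for 2 chains because their values followed each other over the libraries, and for C3ar1 and C5ar1 because their groups did not overlap. Each stretch runs from 250 bases before to 50 after the RefSeq start, 5′ to 3′ on the minus strand, and 5 of the 7 genes had one in the table. Capitals mark matches on either strand to GAGGAA (the core bound by PU.1, a factor of myeloid cells), TGANTCA (AP-1) or TGCTGA (a Maf element core). The interferon-stimulated response element was searched too, with no match in the 5 windows. No matches overlapped each other. The positions are chr4:136886151-136886450 for C1qb, chr4:136892865-136893164 for C1qc, chr6:122856108-122856407 for C3ar1 and chr7:16259289-16259588 for C5ar1.
C1qb: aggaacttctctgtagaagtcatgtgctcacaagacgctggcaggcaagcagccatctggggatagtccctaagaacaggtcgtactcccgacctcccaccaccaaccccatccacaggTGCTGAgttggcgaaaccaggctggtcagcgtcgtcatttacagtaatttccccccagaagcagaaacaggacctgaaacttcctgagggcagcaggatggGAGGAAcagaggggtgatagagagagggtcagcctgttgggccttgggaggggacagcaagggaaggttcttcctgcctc
C1qc: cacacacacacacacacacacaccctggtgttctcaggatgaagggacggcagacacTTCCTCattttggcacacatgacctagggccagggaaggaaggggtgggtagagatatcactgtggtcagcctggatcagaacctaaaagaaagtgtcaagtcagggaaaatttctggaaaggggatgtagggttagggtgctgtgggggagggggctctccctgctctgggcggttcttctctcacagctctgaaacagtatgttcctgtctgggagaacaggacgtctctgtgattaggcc
C3ar1: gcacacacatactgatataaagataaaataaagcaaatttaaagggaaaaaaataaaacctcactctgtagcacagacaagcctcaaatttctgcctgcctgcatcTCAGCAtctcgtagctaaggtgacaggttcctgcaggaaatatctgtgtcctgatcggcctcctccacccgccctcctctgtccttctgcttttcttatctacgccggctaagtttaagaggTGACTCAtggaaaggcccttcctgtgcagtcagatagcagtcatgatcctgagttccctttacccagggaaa
C5ar1: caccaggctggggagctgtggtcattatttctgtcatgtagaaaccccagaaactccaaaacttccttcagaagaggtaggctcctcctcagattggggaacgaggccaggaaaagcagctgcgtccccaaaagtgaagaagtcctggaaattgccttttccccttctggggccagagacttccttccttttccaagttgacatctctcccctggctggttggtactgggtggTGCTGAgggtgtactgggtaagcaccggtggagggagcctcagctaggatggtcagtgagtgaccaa
The PU.1 core stood at -30 from the start of C1qb and, on the other strand, at -193 from that of C1qc. It was not among the letters of the C5ar1 window or of the C3ar1 window, which held an AP-1 match at -22 and a Maf element core at -144. The first capital stretch of C1qb is a Maf element core at -131, and C5ar1 held one at -17. The Cfp window, not printed because its probe sets differ in direction, held the PU.1 core on the other strand at 7 and 23. Of all 32851 promoter windows of this length, 28.3% held the PU.1 core, 7.81% the AP-1 letters, 19.5% the Maf element core and 3.44% the interferon element, and a match is a description only.

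The receptors of the anaphylatoxins, the small fragments released from C3 and C5, were lower in every EGFP-positive library than in any EGFP-negative library. C3ar1, the C3a receptor of myeloid cells, read 4.20, 1.23 and 1.26 in libraries labelled EGFP+, against 6.31, 6.47 and 4.43 in those labelled EGFP-. EGFP-positive replicate 1 came close to EGFP-negative replicate 3, and the other 2 EGFP-positive libraries were at background. The log2 difference was -3.50 (SE 1.01, limma adjusted p = 0.985). With a second quantile normalisation its groups overlapped. C5ar1, the C5a receptor of macrophages and neutrophils, read 2.43, 1.10 and 1.37 in EGFP+ libraries, against 2.92, 4.07 and 3.00 in EGFP- libraries, a log2 difference of -1.70 (SE 0.48, limma adjusted p = 0.985). These are dim values, of which 2 of the 3 EGFP-positive ones lay within the TrpnX range. Without EGFP-positive replicate 1 the differences were -4.49 for C3ar1 and -2.10 for C5ar1, and without replicate 2 they were -3.005 and -1.43, in each case without overlap.

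Other probe sets of the receptors carried less signal. C3ar1 probe set 1419482_at read 2.06, 0.64 and 0.74 in EGFP+ libraries, against 3.12, 5.61 and 2.01 in EGFP- libraries, and here the groups overlapped. Probe set 1419483_at read 2.29, 0.46 and 0.92 in EGFP+ libraries, against 2.68, 3.38 and 2.95 in EGFP- libraries, with no overlap. The second C5ar1 probe set, 1422190_at, stayed between 1.25 and 1.44 in all 6 libraries, inside the background, so it gives no difference. Of the 7 genes, 2 had groups that did not overlap with lower values in the EGFP-positive libraries, C3ar1 and C5ar1, where 6.04% of all genes did so, and 0 had higher values without overlap (3.07% of all genes). Of the 13 probe sets 4 did so, against 4.96% of all probe sets with 1 symbol. With so few genes these shares are a description.

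Cfp, which encodes properdin, the stabiliser of the alternative pathway convertase, gave opposite directions in its 2 probe sets. Probe set 1447537_at, the one with the higher mean, read 4.87, 4.64 and 5.89 in libraries labelled EGFP+, against 3.83, 3.96 and 4.87 in those labelled EGFP-. It was higher in all 3 same-numbered pairs, by 1.03, 0.68 and 1.02, but the groups overlapped, with a log2 difference of 0.91 (SE 0.44, limma adjusted p = 1.00) and of 1.05 or 1.16 without EGFP-positive replicate 1 or 2. Probe set 1452279_at read 2.60, 1.19 and 2.13 in EGFP+ libraries, against 4.52, 5.58 and 5.37 in EGFP- libraries. It was lower in every EGFP-positive library without overlap, with a log2 difference of -3.19 and an adjusted p of 0.656 in limma over all single probe sets. Properdin is made by neutrophils and macrophages. The RefSeq neighbours of Cfp on the X chromosome are Timp1 and Elk1, and which transcript each probe set detects was not tested. No direction is given for Cfp as a gene.

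**Figure D2:**
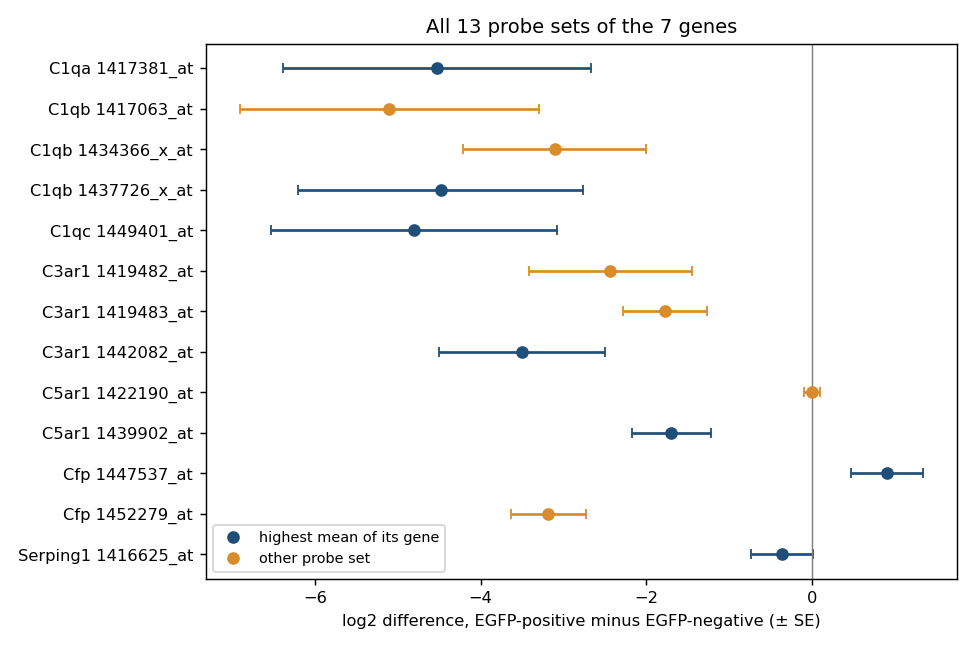
Log2 differences (horizontal axis, EGFP-positive minus EGFP-negative, ± SE) of all 13 probe sets, with the probe set of the highest mean of each gene in blue and the others in orange. The C1q probe sets range from -5.11 to -3.11, the 2 Cfp probe sets stand at 0.91 and -3.19, and Serping1 lies at -0.36.

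Serping1, the C1 inhibitor gene, was abundant in all 6 libraries and differed little between the labels. It read 10.73, 10.87 and 10.13 in libraries labelled EGFP+, against 10.41, 11.66 and 10.75 in those labelled EGFP-. The highest value was in EGFP-negative replicate 2, and EGFP-positive replicates 1 and 2 were above EGFP-negative replicate 1, so the groups overlapped. The log2 difference of -0.36 (SE 0.38) was within the spread of the libraries, at 10.58 ± 0.39 in EGFP+ libraries against 10.94 ± 0.65 in EGFP- libraries (SD, n = 3 each, limma adjusted p = 1.00). Without EGFP-negative replicate 2 it was -0.0010, and without EGFP-positive replicate 1 or 2 it was -0.44 or -0.51. Its 6 values spanned 1.53 log2 units, where those of C1qa spanned 8.23.

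In blood the proteases of the C1 complex travel with C1q and are inhibited by the product of Serping1. Like Serping1, they differed less between the labels than the C1q chains. C1ra read 8.78, 9.10 and 7.70 in EGFP+ libraries, against 8.62, 8.91 and 8.74 in EGFP- libraries, a log2 difference of -0.23 (SE 0.38). C1s1 read 9.16, 9.64 and 8.35 in EGFP+ libraries, against 9.49, 9.98 and 9.30 in EGFP- libraries, a log2 difference of -0.54 (SE 0.37). Both overlapped between the groups, and neither passed (limma adjusted p = 1.00 each). C1s1 was lower in all 3 same-numbered pairs, by differences of -0.33, -0.34 and -0.95. The pair differences were 0.16, 0.19 and -1.04 for C1ra and 0.32, -0.79 and -0.61 for Serping1. In EGFP-positive replicate 3, where C1qa, C1qb and C1qc stood 7.09 to 7.46 below their EGFP-negative means, the mean of Serping1, C1ra and C1s1 was lower by 1.03. In EGFP-positive replicate 2 the chains stood 5.08 to 6.30 below and the mean of the 3 stromal genes 0.11 above. The median difference was -4.53 over the C1q chains and -0.36 over the 3 stromal genes, beside -0.02 over all genes. Whether the 2 sets differ was not tested, and 4 further genes of the stromal set were not analysed here.

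**Figure D3:**
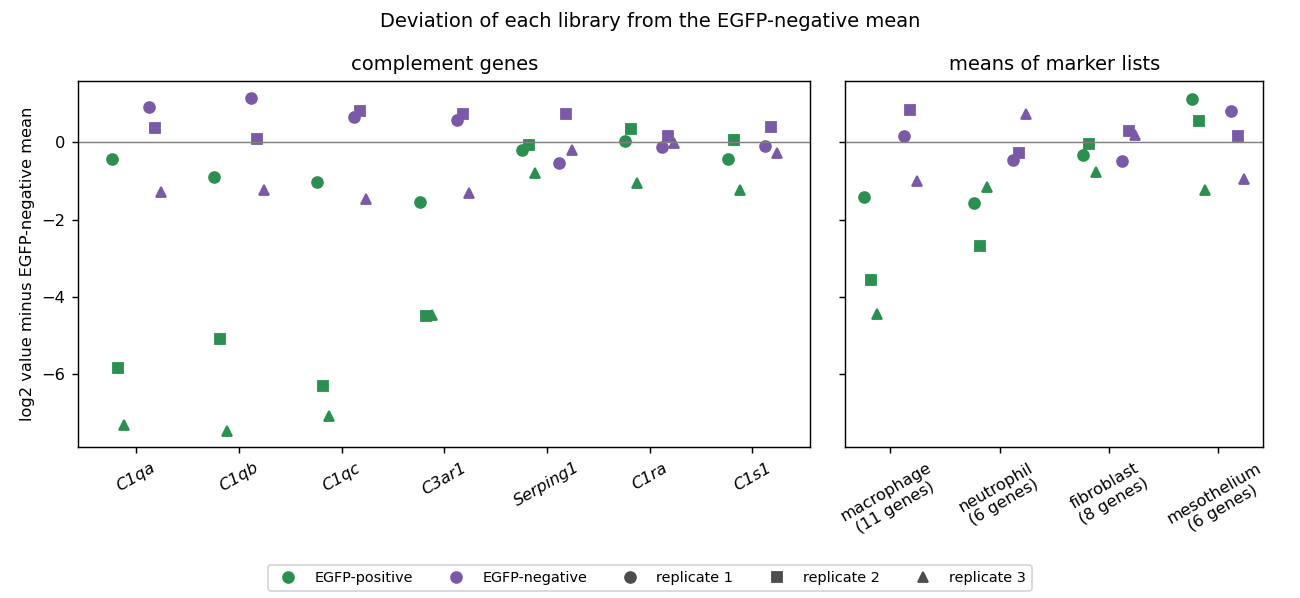
Log2 value of each library minus the EGFP-negative mean (vertical axis) for complement genes on the left and for means of marker lists on the right, with EGFP-positive libraries in green and EGFP-negative libraries in purple. The C1q chains reach -7.46 to -7.09 in EGFP-positive replicate 3, while Serping1, C1ra and C1s1 stay much closer to 0; the macrophage mean reaches -4.45 in the same library and the fibroblast mean -0.76.

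Markers of macrophages were lower in the same libraries as the C1q chains. The 11 macrophage genes with a probe set averaged 5.84, 3.70 and 2.82 in libraries labelled EGFP+, against 7.43, 8.11 and 6.26 in those labelled EGFP-, and 7 of the 11 had groups that did not overlap, all lower, beside 6.04% of all genes. The part of macrophage content in the C1q values was not tested. Against their EGFP-negative means the 11 genes stood at -3.09 to -0.28 in EGFP-positive replicate 1, at -5.94 to -1.46 in replicate 2 and at -6.60 to -2.02 in replicate 3. The C1q chains in replicate 3, at -7.46 to -7.09, were thus lower than each of the 11 markers. How far a gene can fall depends on its EGFP-negative level above background. In EGFP-positive replicate 3 Cd68, Aif1, Cd163 and Cx3cr1 read 1.21, 1.00, 1.27 and 1.47, at background, so the size of their fall was limited. Csf1r, the receptor that keeps macrophages alive, read 8.98, 7.24 and 5.38 in EGFP+ libraries, against 9.59, 9.66 and 8.55 in EGFP- libraries. Tyrobp, a myeloid signalling adaptor, stood at -6.60 in replicate 3, the lowest of the markers, and Cx3cr1, a chemokine receptor, at -2.02, the highest, from a dim EGFP-negative level of 3.49.

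Neutrophils also make properdin and the C5a receptor, and their markers S100a8 and S100a9 had another order of EGFP-positive libraries than the C1q chains. S100a8, a calcium-binding protein of neutrophils, read 4.44, 2.25 and 6.31 in libraries labelled EGFP+, against 7.27, 8.38 and 9.92 in those labelled EGFP-. Its highest EGFP-positive value was thus in replicate 3, where the C1q chains had their lowest. Csf3r, another neutrophil marker, read 2.08, 0.97 and 1.11 in EGFP+ libraries, against 2.44, 2.36 and 4.66 in EGFP- libraries. Its highest EGFP-positive value was in replicate 1, as for the C1q chains. The list of 6 averaged 2.57, 1.47 and 2.99 in EGFP+ libraries, against 3.69, 3.88 and 4.89 in EGFP- libraries, and 3 of the 6, S100a8, S100a9 and Csf3r, were lower without overlap, beside 6.04% of all genes. Mpo and Elane, granule enzymes of neutrophil precursors, and Cxcr2, a chemokine receptor of neutrophils, stayed below 2 in every library. Fibroblast markers averaged 10.72, 11.02 and 10.30 in EGFP+ libraries, against 10.58, 11.36 and 11.23 in EGFP- libraries, with 0 of 8 genes without overlap in either direction (6.04% of all genes lower, 3.07% higher). Mesothelial markers averaged 9.63, 9.07 and 7.27 in EGFP+ libraries, against 9.32, 8.67 and 7.56 in EGFP- libraries, also with 0 of 6. Enteric glia markers averaged 6.68, 6.08 and 8.51 in EGFP+ libraries, against 4.81, 5.78 and 5.44 in EGFP- libraries. All 4 glial genes had a positive difference, with a median of 1.71, and 3 of them, Sox10, Erbb3 and S100b, were higher without overlap, beside 3.07% of all genes. Their mean stood 3.17 above the EGFP-negative mean in EGFP-positive replicate 3, the library with the lowest C1q values. The part of these cells in the complement values was not tested.

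Genes known from myeloid cells were among those whose pattern was most like that of the C1q chains. Among 1201 genes with a range of at least 2 and a highest value of at least 6, the 5 with the highest Pearson correlation over the 6 libraries with the mean of the 3 chains were F13a1 (0.999), Fcgr3 (0.995), Mpeg1 (0.994), Pf4 (0.992) and Lyz1 (0.990). F13a1, the A subunit of coagulation factor XIII, read 6.32, 1.74 and 0.05 in EGFP+ libraries, against 8.51, 7.61 and 5.91 in EGFP- libraries. Fcgr3, a low-affinity receptor for IgG, read 6.34, 2.51 and 1.23 in EGFP+ libraries, against 7.76, 8.04 and 6.42 in EGFP- libraries. Mpeg1, the macrophage perforin, read 6.88, 3.04 and 1.87 in EGFP+ libraries, against 8.18, 8.29 and 7.16 in EGFP- libraries. Pf4 encodes a chemokine and Lyz1 a lysozyme that its near copy Lyz2 can resemble on an array. The 5 share the low values of EGFP-positive replicates 2 and 3, and 6 libraries give the correlations no more than a description.

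The genes most like Serping1 were others. Gsta3, a glutathione transferase, had a correlation of 0.957, Bmp6, a growth factor, 0.955, and Adamtsl3, a matrix protein, 0.944. Gsta3 read 3.32, 4.47 and 1.60 in EGFP+ libraries, against 3.30, 6.06 and 3.30 in EGFP- libraries, so that EGFP-negative replicate 2 was highest and EGFP-positive replicate 3 lowest, as for Serping1. None of these 8 genes passed over all genes (limma adjusted p of 0.986 for the first 5 and 1.00 for the others).

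Of 6 genes for receptors of fixed C3 fragments or C1q, 5 were lower in every EGFP-positive library than in any EGFP-negative one. Of all genes, 6.04% were lower without overlap. Itgb2, the beta chain of the leukocyte integrins that serve as complement receptors, read 4.51, 2.13 and 1.87 in libraries labelled EGFP+, against 5.53, 8.30 and 7.18 in those labelled EGFP-. Its log2 difference of -4.17 (SE 0.99) did not pass (limma adjusted p = 0.951), and the groups stayed apart in all 6 fits with a library left out and all 6 other settings tried. Its alpha partners were dim. Itgam read 1.42, 1.24 and 0.90 in EGFP+ libraries, against 1.80, 1.70 and 2.36 in EGFP- libraries, and Itgax read 1.42, 1.26 and 1.51 in EGFP+ libraries, against 1.81, 2.82 and 3.15 in EGFP- libraries. Cr2, the complement receptor of B cells, read 1.54, 1.39 and 1.44 in EGFP+ libraries, against 1.93, 2.26 and 4.47 in EGFP- libraries, with its highest value in EGFP-negative replicate 3. The 3 B lymphocyte markers with a probe set averaged 1.81, 1.29 and 1.28 in EGFP+ libraries, against 2.69, 3.72 and 5.77 in EGFP- libraries, so that the same library was highest. Cd93, a surface protein of endothelium and myeloid cells, read 6.91, 7.45 and 6.28 in EGFP+ libraries, against 7.79, 7.47 and 7.73 in EGFP- libraries, where EGFP-positive replicate 2 and EGFP-negative replicate 2 differed by -0.02. Vsig4, a C3b receptor of resident macrophages, read 1.38, 1.22 and 0.86 in EGFP+ libraries, against 2.35, 4.20 and 1.02 in EGFP- libraries and overlapped. With ribosomal centring 2 of the 5, Itgb2 and Itgam, stayed apart, where 1.32% of all genes were lower without overlap. Of the 3 EGFP-positive values, 0 for Itgam and 1 each for Itgax and Cr2 lay above the TrpnX controls. These 3 genes thus separated with most EGFP-positive values at background. Itgam, Itgax, Cr2 and Vsig4 are named after their values were seen.

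**Figure D4:**
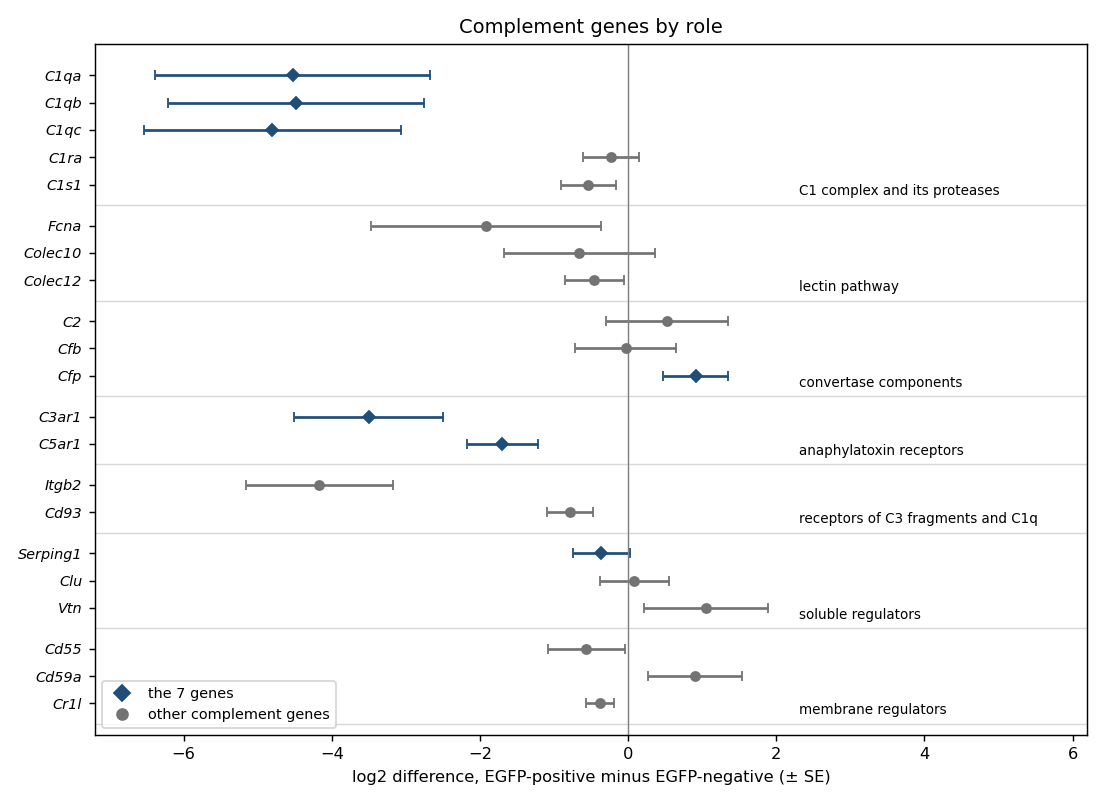
Log2 differences (horizontal axis, EGFP-positive minus EGFP-negative, ± SE) of complement genes by role, for the 7 genes (diamonds) and for other complement genes that reached a value of 5 in at least 1 library (circles). The C1q chains, C3ar1 and Itgb2 lie below -3, while the proteases, convertase components and regulators lie between -0.57 and 1.05. Cfp is drawn by probe set 1447537_at only, at 0.91, and its other probe set, 1452279_at, was at -3.19.

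The convertase components other than Cfp had no common direction. C2, the protease component of the classical convertase, read 9.20, 8.34 and 6.23 in EGFP+ libraries, against 7.83, 7.75 and 6.60 in EGFP- libraries, and Cfb, its counterpart in the alternative pathway, read 8.77, 8.79 and 6.59 in EGFP+ libraries, against 8.37, 8.47 and 7.42 in EGFP- libraries. Both were lowest in replicate 3 of each group, as were the means of the mesothelial and of the epithelial markers. The 5 epithelial markers averaged 8.71, 7.91 and 5.38 in EGFP+ libraries, against 7.09, 7.71 and 6.09 in EGFP- libraries. The part of either cell type in the C2 and Cfb values was not tested. The log2 differences of C2 and Cfb were 0.53 (SE 0.83) and -0.04 (SE 0.69). Of the lectin pathway genes, 3 of 9 reached a value of 5. Fcna, a ficolin of macrophages, read 2.93, 1.24 and 1.05 in EGFP+ libraries, against 2.69, 7.02 and 1.26 in EGFP- libraries, so that a single library, EGFP-negative replicate 2, carried it. Colec10, a collectin, read 1.99, 1.71 and 4.05 in EGFP+ libraries, against 2.79, 1.89 and 5.04 in EGFP- libraries, with high values in replicate 3 of both groups. Colec12, a scavenger receptor, read 5.01, 5.82 and 4.84 in EGFP+ libraries, against 5.03, 5.84 and 6.17 in EGFP- libraries. The 6 terminal pathway genes with a probe set, which encode parts of the membrane attack complex, stayed below 2 in all 6 libraries.

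The regulators had differences in both directions, none past the threshold. Clu, which encodes the soluble inhibitor clusterin, read 10.19, 9.66 and 8.63 in EGFP+ libraries, against 9.92, 9.39 and 8.92 in EGFP- libraries, a log2 difference of 0.08 (SE 0.47). Vtn, which encodes vitronectin, another fluid-phase inhibitor of the terminal complex, read 4.21, 3.27 and 5.79 in EGFP+ libraries, against 2.10, 3.71 and 4.29 in EGFP- libraries, a log2 difference of 1.05 (SE 0.84) that was positive in pairs 1 and 3 and negative in pair 2. Cd55, the decay-accelerating factor, read 6.44, 7.84 and 6.63 in EGFP+ libraries, against 6.85, 8.29 and 7.46 in EGFP- libraries and was lower in all 3 same-numbered pairs, with a log2 difference of -0.57 (SE 0.52). Cd59a, a membrane inhibitor of the terminal complex, read 7.54, 7.11 and 8.94 in EGFP+ libraries, against 6.01, 7.15 and 7.71 in EGFP- libraries, a log2 difference of 0.90 (SE 0.64). Cr1l, the rodent membrane regulator Crry, read 7.42, 7.48 and 6.96 in EGFP+ libraries, against 7.68, 7.84 and 7.48 in EGFP- libraries, and was lower in all 3 pairs, with a log2 difference of -0.38 (SE 0.19). Csmd1, a membrane protein of neurons that can inhibit complement, did not reach 5 and is named after its values were seen. It read 2.17, 2.34 and 3.71 in EGFP+ libraries, against 1.98, 1.86 and 1.55 in EGFP- libraries, higher without overlap, with a log2 difference of 0.94 (SE 0.44, limma adjusted p = 1.00). None of the 42 listed complement genes with a probe set passed over all genes. Of the 35 that are no members, 25 had a negative difference and 10 a positive one, with a median of -0.14 beside -0.02 over all genes, and 5 had lower values without overlap, beside 6.04% of all genes, and 1 higher, beside 3.07%.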

How the data were processed

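Total RNA of sorted cells (about 50 ng) was labelled and hybridised to Affymetrix Mouse Genome arrays, 1 per library, per the labels. The authors deposited log2 values; the submitters' processing notes name RMA, without version or settings. Quartiles differed between columns (upper quartile 4.08 to 4.86), so dim values are compared with caution. Precision is limited by the number of arrays.

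Symbols came from the platform annotation: 34945 probe sets had 1 symbol, 932 several and 9160 none, and 64 were controls. Of several probe sets of a gene, the one with the highest mean over the 6 arrays was used. The groups were compared with limma 3.58.1 (R 4.3.3, lmFit and eBayes, two-sided) over 18193 genes with Benjamini-Hochberg adjustment. The p-values measure the spread between these pooled libraries. The fit was tested on data simulated with independent libraries, without spread shared by same-numbered ones. It recovered 24% of genes changed by a log2 difference of 1, 58% at 2, 82% at 4 and 92% at 6, with 2 false calls. Python 3.11.15 with pandas 2.3.3 made the tables, and matplotlib 3.10.9 the figures.

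Replicates carry the numbers 1 to 3 in each group's labels. Deviations from the group means correlated at 0.43, 0.34 and 0.53 in the same-numbered pairs and at -0.02 or lower in all others over 6092 genes. Such deviations cancel within a group, so the low values of the other pairs follow in part from the high ones. The numbers were taken to pair the libraries, and the replicate number was tried as a block. The SE and p-values in the results are from the fit without the block unless stated. Other alternatives were median, quantile and ribosomal centring, other choices of probe set, a level filter, trend and robust variances, array weights and leaving out each library.

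The genes and lists were chosen with earlier results of these data known. Named were the 7 genes, other listed complement genes that reached 5 (the highest and lowest of each role list, or all of 3 or fewer), the 5 genes most like the C1q mean and the 3 most like Serping1. Some listed genes were not analysed here.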

Additional observations from a re-analysis of the deposited data

How the results depend on the processing

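The C1q chains and C3ar1 kept a negative difference under every setting tried, from -6.70 to -2.99 for the chains and from -4.49 to -1.77 for C3ar1, and none of the 7 genes passed over all genes under any (limma adjusted p of at least 0.25). Leaving out EGFP-positive replicate 1, the EGFP-positive library inside the EGFP-negative range, ended the overlap of the C1q chains, beside 11.6% of all genes lower without overlap. The differences were then -6.57, -6.27 and -6.70 for C1qa, C1qb and C1qc, with adjusted p = 0.373, 0.607 and 0.347 in limma. Without EGFP-negative replicate 3, their lowest EGFP-negative library, the overlap ended too (11.1% of all genes). Without EGFP-positive replicate 3 the differences were -3.14, -2.99 and -3.66. The paired fit takes the replicate number as a block. Its SE were 1.15, 0.91 and 1.17 for C1qa, C1qb and C1qc and 0.14 for Cfp, smaller than without the block, and 0.53 for C5ar1, larger. This fit gave adjusted p = 0.661 in limma for all C1q chains, C3ar1, C5ar1 and Cfp and changed no call. The count of genes past the threshold stayed 0, with 1345 at an unadjusted p under 0.05. That count was 0 to 2 when libraries were left out, and the 2, Ccr2 and Fermt3, were called without EGFP-positive replicate 1. C5ar1 and Cfp turned. C5ar1 gave 0.0012 with its second probe set, which is at background, and Cfp gave -1.14 with the mean of its probe sets and -3.19 with its second one, a reversal that comes from the probe set chosen.

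The number of complement genes with lower values and no overlap was 7, where 6.04% of all genes were lower without overlap. It was 4 with arrays centred on ribosomal protein genes (1.32% of all genes), 3 among genes above the median level, where fewer genes are tested (5.68%), 9 with arrays centred on their median (9.28%), 5 after a second quantile normalisation (7.79%) and 7 to 14 with a library left out (11 and 14 without EGFP-negative replicates 1 and 3, 13 without EGFP-positive replicate 1 or 2), where 9.14% to 15.1% of all genes were also lower without overlap. Without these changes the list medians were -4.48 for the C1 complex, -0.26 for lectins, 0.53 for convertase components and -0.060 for the terminal list. They were -1.28 for the C3 fragment receptors, 0.069 for the soluble regulators and -0.10 for the membrane regulators. Ribosomal centring moved the median over all genes to 0.30. The median of the lectin list was then 0.061, of the terminal list 0.26, of the soluble regulators 0.39 and of the membrane regulators 0.22. With arrays centred on their median the terminal list was at -0.10. Among genes above the median level the C3 fragment receptors were at -2.48 and the membrane regulators at -0.38. With the mean of all probe sets the convertase list was at -0.036. Cfp enters that list at 0.91 by probe set 1447537_at, and at -1.14 with the mean of its probe sets. With libraries left out the medians ran from -6.27 to -2.99 for the C1 complex, -0.62 to -0.058 for lectins, -0.11 to 0.72 for convertase components and -1.52 to -0.84 for the receptors. Arrays without detection calls give no limit of detection, so values near 1 are read as background only.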
